A study of Helianthus annuus with 15 samples.

Results

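The genes described here were high in both stem and flower of sunflower (Helianthus annuus) and low in root, leaf and axil. They were taken from a table of FPKM values (fragments per kilobase of gene length per 1e6 reads) in 15 mRNA libraries, 3 each from root, stem, leaf, flower and axil. The axil is the angle between leaf and stem. The labels give the tissue alone, with no cultivar, plant age or treatment. They do not say which part of the flower head was taken, or whether a tissue's 3 libraries are from different plants, so the p-values reflect the scatter among these libraries, possibly technical scatter.

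A gene was taken when its identifier began with HannXRQ_Chr and its mean log2(FPKM + 1) in stem and in flower each exceeded the means in root, leaf and axil by at least 1. The stem and flower means also had to lie under 1 apart, with all 6 stem and flower libraries above all 9 others. Of 57688 such identifiers, 588 met the rule, and the 300 with the largest margin over the next tissue were kept. The margin is the lower of the stem and flower means minus the highest of the other 3 means. The genes were chosen by these same FPKM values, so their height in stem and flower is a description and was not tested. The other 288 genes that met the rule are given beside the 300 where that shows how far a pattern reaches.

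The stem of sunflower carries the leaves and ends in the flower head, a dense inflorescence of florets seated on a broad receptacle that continues the stem. Both organs hold vascular strands, supporting tissue, epidermis and growing cells in proportions that differ from those of a leaf or a root. In RNA from whole tissue, fewer cells of a type and less RNA per cell cannot be told apart. Of the identifiers, 0 are listed in the RefSeq gene table, and the deposited table pairs no name with any of the 300, so no role can be stated for a gene and the labelled tissues could not be checked against marker genes.

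Library totals, read from the steps between FPKM values, lay between 12087704 and 14732362 reads. For a gene 1000 nt long, 3 reads then equal 0.204 to 0.248 FPKM. In these genes Stem 3, Leaf 2, Axil 1 and Root 1 stood above the other libraries of their tissue by median level. Where leaving one of them out moves a count or a difference by over 1.5 times, the value without it is given.

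The 300 genes made up a few percent of the reads in stem and flower and well under 1 percent elsewhere. In stem they held 2.40%, 2.08% and 3.72% of the reads of libraries 1 to 3, and in flower 2.68%, 2.55% and 2.70%. In axil the shares were 0.530%, 0.332% and 0.212%, in leaf 0.235%, 0.568% and 0.277%, and in root 0.254%, 0.180% and 0.181%. Flower libraries were close to one another, whereas the shares in stem, leaf and axil differed by more than 1.5 times between libraries of the same tissue.

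The median gene of the 300 was at 18.2, 18.6 and 31.5 FPKM in the stem libraries and at 22.7, 26.5 and 22.3 FPKM in the flower libraries. It was at 3.62, 2.41 and 1.24 FPKM in axil, at 0.861, 3.43 and 1.23 FPKM in leaf and at 1.72, 0.837 and 0.860 FPKM in root. The median of the 32355 other tested genes with such identifiers moved far less, between 4.49 FPKM in Leaf 3 and 5.88 FPKM in Axil 1. None of the 300 was at 0 in a stem or flower library. Between 34 and 44 were at 0 in a root library, between 16 and 38 in a leaf library and between 7 and 32 in an axil library.

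**Figure D1:**
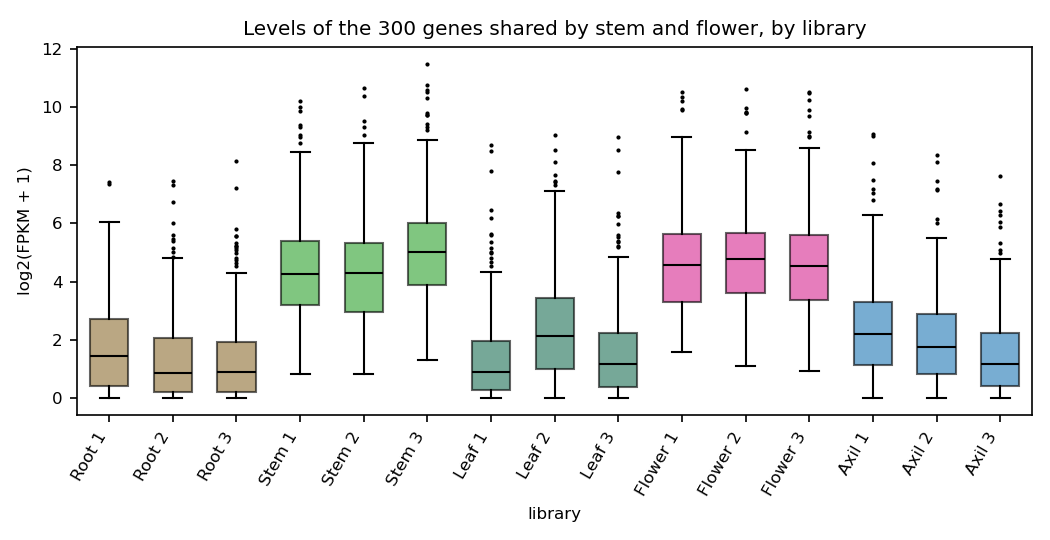
Levels of the 300 genes in each of the 15 libraries, as log2(FPKM + 1). Boxes show the quartiles with the median as a line, whiskers reach 1.5 times the box, and points lie beyond. The stem and flower boxes stand above the others because the genes were chosen so. Stem 3 (median 5.02), Leaf 2 (2.15), Axil 1 (2.21) and Root 1 (1.44) are the highest of their tissues by median.

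Levels in stem and flower spanned a wide range. The mean over the 6 stem and flower libraries ran from 2.43 to 1421 FPKM, with a median of 24.5 and quartiles at 11.1 and 45.0. In 183 of the 300 genes all 6 libraries reached 10 FPKM, and in 28 they reached 100. The margin ran from 1.48 to 6.57 on the log2 scale, with a median of 2.01. It was at least 2 in 153 genes and at least 4 in 11.

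HannXRQ_Chr10g0292011 on chromosome 10 had the largest margin, 6.57. It was at 528, 307 and 677 FPKM in stem, a mean of 504 ± 186 (SD, n = 3), and at 418, 340 and 349 in flower, a mean of 369 ± 42.9 (SD, n = 3). In axil it was at 8.10, 2.65 and 0.754 FPKM, in leaf at 0.316, 3.35 and 5.14, and in root at 0.0542, 0.135 and 0. The root values rest on 1, 3 and 0 reads, so its root level is at the limit of detection, while axil and leaf were measurable and uneven.

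HannXRQ_Chr15g0470301 on chromosome 15 came second, with a margin of 6.02 and a length of only 333 nt. Its stem libraries held 631, 419 and 1718 FPKM and its flower libraries 499, 367 and 385. No read (0) fell on it in any root library. In leaf it was at 0, 19.9 and 1.43 FPKM and in axil at 10.7, 6.46 and 1.98. Leaf 2 and Stem 3 were the highest libraries of their tissues.

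The most abundant gene, HannXRQ_Chr09g0270381 on chromosome 9, was far from silent elsewhere and had a margin of 1.63. It stood at 934, 1613 and 1537 FPKM in stem and 1443, 1550 and 1447 in flower. Its leaf values were 409, 524 and 363 FPKM, its axil values 535, 277 and 85.0, and its root values 172, 175 and 283. Its lowest stem library lay above its highest axil library by 934 to 535 FPKM.

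HannXRQ_Chr13g0402501 on chromosome 13, the next in abundance, was at 1013, 637 and 2856 FPKM in stem and 1183, 912 and 1216 in flower. It was at 15.4, 128 and 62.2 FPKM in leaf, 180, 25.3 and 10.8 in axil and 6.22, 1.64 and 3.01 in root. Stem 3, Leaf 2, Axil 1 and Root 1 were each the highest library of their tissue for this gene. Its margin was 4.42.

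**Figure D2:**
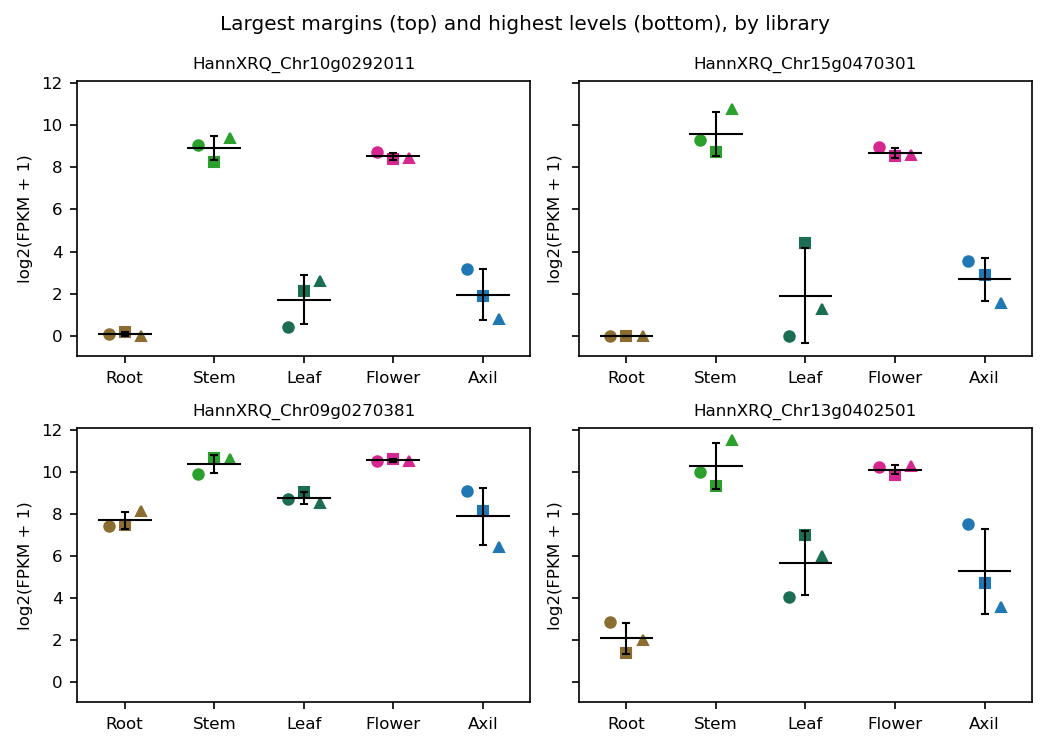
Levels by library of the genes with the largest margins (top) and the highest levels (bottom), as log2(FPKM + 1). Circles, squares and triangles are libraries 1, 2 and 3 of a tissue, and lines give the mean ± SD (n = 3). Flower libraries lie close together, while leaf and axil libraries of HannXRQ_Chr15g0470301 and HannXRQ_Chr13g0402501 are spread widely.

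Complete absence outside stem and flower was rare. In 37 of the 300 genes each of the other 9 libraries was under 1 FPKM. Of these, HannXRQ_Chr11g0339391 and HannXRQ_Chr08g0225901 reached 10 FPKM in all 6 stem and flower libraries. HannXRQ_Chr11g0339391, with 26.98, 79.6 and 43.1 FPKM in stem and 25.2, 43.0 and 23.4 in flower, had no read (0) in root and at most 0.169 FPKM elsewhere. A single gene, HannXRQ_Chr02g0052181, had 0 reads in all 9, but it was low in stem (3.51, 1.42 and 2.23 FPKM) and in flower (7.53, 1.86 and 4.84 FPKM). HannXRQ_Chr11g0339391 and HannXRQ_Chr02g0052181 were picked after their values were seen.

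By the rule, stem and flower means lay under 1 apart. Flower was higher in 179 genes and stem in 121, with a median stem minus flower difference of -0.15 on the log2 scale, against -0.13 in the 288 further genes. The libraries of stem and flower overlapped in 233 genes. They were separate with stem higher in 29 and with flower higher in 38. In the 288 further genes these counts were 197, 31 and 60. The rule bounds the difference and no share over all genes was computed, so the overlap is a description only. Stem 3 bears on how many genes were higher in stem by the mean: without it there were 85, and without Stem 2 there were 159.

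**Figure D3:**
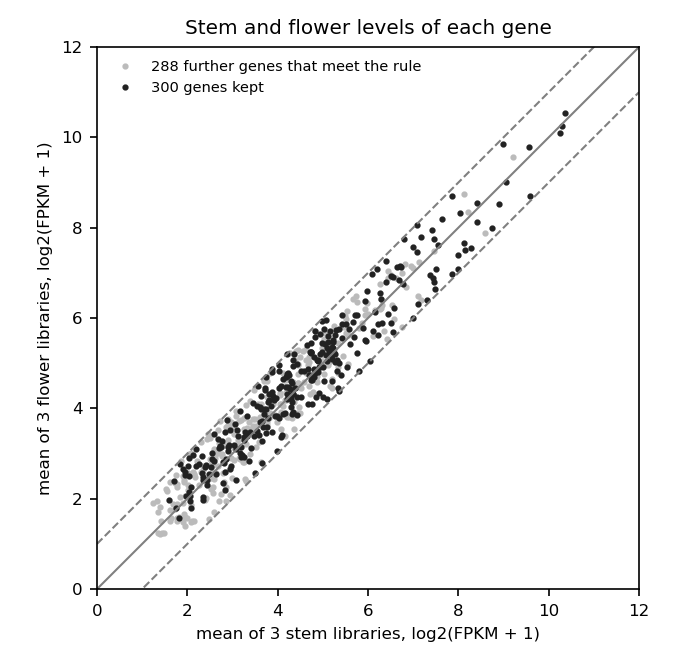
Mean of the 3 stem libraries against the mean of the 3 flower libraries for each gene, both as log2(FPKM + 1). Black points are the 300 genes kept and grey points the 288 further genes that meet the rule, the solid line marks equal levels, and dashed lines mark the difference of 1 that the rule allows. Of the 300, 179 lie above the solid line and 121 below it.

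Among genes with separate libraries, HannXRQ_Chr15g0479351 on chromosome 15 leaned most to stem. It was at 42.5, 60.5 and 105 FPKM in stem and at 27.6, 41.0 and 29.1 in flower, a log2 difference of 0.99. Without Stem 3 the difference was 0.65, so its place as the gene that leans most to stem rests on that library. HannXRQ_Chr14g0453281 on chromosome 14 was at 40.7, 34.6 and 45.4 FPKM in stem and 17.2, 21.6 and 20.7 in flower. With all libraries both differences sit at the edge of the band, since the rule removes genes that differ by more.

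HannXRQ_Chr08g0225901 on chromosome 8 leaned most to flower among genes with separate libraries, with 30.98, 39.2 and 38.0 FPKM in flower and 20.4, 15.6 and 17.1 in stem. Outside these tissues it was nearly silent, at 0.281, 0.292 and 0.275 FPKM in root and with 1 read in leaf and 1 in axil over all their libraries. HannXRQ_Chr12g0377361 on chromosome 12 was at 302, 211 and 301 FPKM in flower and 136, 122 and 146 in stem. These genes lean by differences of -0.99 each.

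Libraries of the same tissue stood apart over these genes, and for most genes the same library was on top. The rule treats the 3 libraries of a tissue alike and did not name which was highest. It used their values, however, so a library that stands apart bears on which genes were taken. Without Stem 3, 479 genes met the rule, without Stem 2 729 and without Leaf 2 704, against 588 with all libraries. How far the shares below follow from the choice of genes was not tested. Leaf 2 was the highest leaf library in 250 of the 300 genes (83.3%), against 41.2% of the 32355 other genes. Axil 1 was the highest axil library in 210 (70.0%, against 41.7%), Stem 3 the highest stem library in 208 (69.3%, against 30.3%) and Root 1 the highest root library in 202 (67.3%, against 40.2%). The 288 further genes had the same libraries on top, at 74.0% for Leaf 2, 67.0% for Axil 1, 63.9% for Stem 3 and 58.3% for Root 1. At the other end, Leaf 1 was the highest leaf library in 6 of the 300 and Axil 3 the highest axil library in 17. Flower differed less, with Flower 2 highest in 176 (58.7%, against 45.0%). Genes are not independent of one another, and no test was made.

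**Figure D4:**
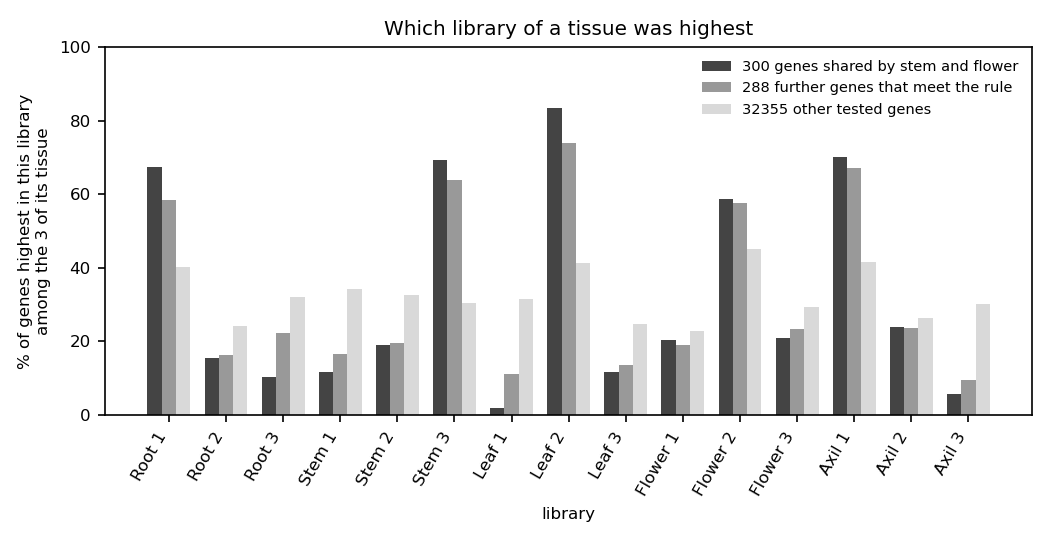
Share of genes for which each library was strictly the highest of the 3 of its tissue. Dark bars are the 300 genes, mid-grey bars the 288 further genes that meet the rule and light bars the 32355 other tested genes. Leaf 2, Axil 1, Stem 3 and Root 1 stand at 83.3%, 70.0%, 69.3% and 67.3% in the dark bars and at 41.2%, 41.7%, 30.3% and 40.2% in the light ones.

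The size of these shifts was largest in leaf. On the log2 scale, Leaf 2 exceeded the average of Leaf 1 and Leaf 3 by a median of 0.88 over the 300 and 0.01 over the other 32355. The corresponding median was 0.62 for Stem 3 (-0.05 over the other genes), 0.58 for Axil 1 (0.04) and 0.31 for Root 1 (0.03). In 112 of the 300 genes (37.3%) Leaf 2 exceeded both other leaf libraries by at least 1 on the log2 scale, as did 5.15% of the other genes. For Stem 3 this held in 61 genes (20.3%, against 2.44%), and for Axil 1 in 44 (14.7%, against 2.32%).

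Stem 3 and Leaf 2 were both on top in 185 genes (61.7%), where the product of their separate shares is 57.8%. All of Stem 3, Leaf 2, Axil 1 and Root 1 were on top in 105 (35.0%), where the product is 27.2%. Over the other 32355 genes the joint shares were 18.1% and 4.02% and the products 12.5% and 2.09%, and none of these gaps was tested. The sizes of the Stem 3 and Leaf 2 shifts were only loosely related across the 300 genes, with a Pearson r of 0.16, and more closely across the 32355 others, at 0.39. These points share their libraries.

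Flower was the steadiest of the tissues for these genes. The median SD between its libraries was 0.20 on the log2 scale, against 0.50 in stem, 0.55 in leaf, 0.46 in axil and 0.28 in root. Over the other 32355 genes the same medians were 0.14, 0.24, 0.25, 0.21 and 0.21. Stem varied more than flower in 257 of the 300 genes (85.7%) and in 71.3% of the others.

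Over genes that did not meet the rule, the likeness of a library to stem and flower moved with these shifts in axil. In leaf this held for flower but not for stem, and in root for neither. Axil 1 correlated with the stem mean at a Pearson r of 0.874, Axil 2 at 0.827 and Axil 3 at 0.778. Leaf 2 correlated with the flower mean at 0.757, above Leaf 1 at 0.720 and Leaf 3 at 0.740, but with the stem mean at 0.779, between Leaf 1 at 0.775 and Leaf 3 at 0.797. Root 1 lay between the other root libraries with both tissues, at 0.625 with stem and 0.526 with flower, under Root 3 at 0.645 and 0.534. These correlations are across 32355 genes of the same libraries, and their part in the shifts was not tested.

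After stem and flower, the axil was most often the next highest tissue. It was next in 140 of the 300 genes (46.7%), leaf in 82 (27.3%) and root in 78 (26.0%), and the 288 further genes split alike (50.0%, 23.6% and 26.4%). The order of the 3 tissues depended on scaling and on single libraries. Leaf was next in more genes than axil after median-of-ratios scaling (121 against 98) and quantile normalization (112 against 95), without Leaf 1 (126 against 107) and without Axil 1 (105 against 96). Without Leaf 2 the axil was next in 174 genes, root in 85 and leaf in 41. Root was also next in more genes than leaf after scaling to equal sums of FPKM (88 against 64) and without Axil 3 (64 against 56). The same held without Axil 2 (82 against 77), Root 3 (89 against 80) or Root 2 (86 against 85). Without Axil 1 root was next in more genes than axil (99 against 96).

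By single library rather than by mean, leaf came before axil. The highest of the 9 root, leaf and axil values lay in a leaf library in 127 genes, in an axil library in 108 and in a root library in 65. It was Leaf 2 in 120 genes, Axil 1 in 84 and Root 1 in 48. Genes with leaf next had medians of 4.44 FPKM in leaf, 2.72 in axil and 0.615 in root. Genes with axil next had 3.24 FPKM in axil, 1.55 in leaf and 0.920 in root, and genes with root next had 3.26 FPKM in root, 1.97 in axil and 1.05 in leaf.

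Root, leaf and axil were then compared with one another. The rule uses the highest of their 3 means and the highest of their 9 libraries, and treats the tissues alike. Which of them is higher was thus not chosen, though their low levels and the limit on their highest library were. Values of log2(FPKM + 1) were fitted with limma over 34586 genes and the 15 libraries together. The tissues share an estimate of the spread that includes the stem and flower values used by the rule. The p-values are therefore not free of the choice of genes. Calls needed a log2 difference of 1 or more in size and, after Benjamini-Hochberg adjustment, a p below 0.05. All 300 genes passed the filter on low values, which their stem and flower levels alone ensured. Their median of mean FPKM was 1.34 in root, 2.09 in leaf and 2.70 in axil, against 5.30, 4.99 and 5.79 over the 32355 other genes. These low levels follow from the rule, and their part in the shares called below, which stand beside those of all genes tested only as a background, was not tested.

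Against axil, 60 of the 300 genes were lower in root (20.0%, where 13.7% of all genes tested were) and 2 were higher (0.667%, where 11.2% were). The median root minus axil difference was -0.27 on the log2 scale over the 300 and -0.10 over all genes tested. Of the 288 further genes, 46 (16.0%) were lower in root than in axil. With a pseudocount of 5 in place of 1, which damps low values, the 60 became 23 and the 2 became 1. Of all genes tested, 6.65% and 6.08% were then called. Without Axil 1 the 2 became 6, where 11.4% of all genes tested were higher in root.

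HannXRQ_Chr08g0223681 on chromosome 8 had the largest difference with separate libraries. It was at 40.2, 17.8 and 14.3 FPKM in axil and at 0.510, 0.0529 and 0.436 in root, where it rested on 8, 1 and 7 reads. The log2 difference of root minus axil was -4.11 ± 0.35 (SE; limma adjusted p = 7.39e-07). In stem it was at 97.0, 142 and 58.4 FPKM and in flower at 101.4, 138 and 121. The same gene was low in leaf, at 1.05, 0.646 and 0.788 FPKM, with a leaf minus axil difference of -3.65 ± 0.35 (SE; limma adjusted p = 5.45e-06). It is one of the genes in which Stem 3 was the lowest stem library.

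HannXRQ_Chr12g0377361, described above for its lean to flower, was second, at 33.9, 15 and 18.2 FPKM in axil and 0.664, 0.257 and 0.173 in root (limma adjusted p = 2.89e-06 for a log2 difference of -4.03 ± 0.40, SE). In leaf it was at 7.09, 25.1 and 25.05 FPKM, a range that overlaps the axil. The 2 genes higher in root than in axil had overlapping libraries. HannXRQ_Chr11g0345351 on chromosome 11 was at 49.8, 63.9 and 30.5 FPKM in root and 30.998, 11.0 and 13.8 in axil (log2 difference 1.40, limma adjusted p = 0.0042, and 0.0537 when root and axil were fitted alone). HannXRQ_Chr14g0429311 was at 12.6, 4.81 and 5.92 FPKM in root and 4.91, 2.24 and 1.55 in axil (log2 difference 1.16, limma adjusted p = 0.0489), and was named after its values were seen. Its call was lost with root and axil fitted alone (limma adjusted p = 0.0918), with the replicate block (0.0524), without the filter (0.108) and without any single stem or flower library. It was also lost without Root 1 (limma adjusted p = 0.199), Root 3 (0.0659), Axil 2 (0.127), Axil 3 (0.163) or Leaf 1 (0.0527), and with a pseudocount of 0.1 or 5. The call held without Root 2, Axil 1, Leaf 2 or Leaf 3.

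Against leaf, 55 genes were lower in root (18.3%, where 14.4% of all genes tested were) and 15 were higher (5%, where 16.0% were). The median root minus leaf difference was -0.11 over the 300 and 0.15 over all genes tested. These counts rest in part on Leaf 2. Without it 37 of the 300 were lower in root, where 14.0% of all genes tested were, so the 300 no longer stood above that background. Higher in root were then 29, where 16.4% of all genes tested were. The count of 15 was also 9 without Leaf 1 and 9 without Root 1, where 15.8% and 15.7% of all genes tested were called. With a pseudocount of 5 the counts were 20 and 4, where 8.2% and 8.27% of all genes tested were called. After median-of-ratios scaling the medians were -0.21 and 0.02. Of the 288 further genes, 24 were lower in root than in leaf (8.33%) and 9 higher (3.13%).

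HannXRQ_Chr12g0376681 on chromosome 12 had the largest difference toward leaf. It was at 13.1, 92.8 and 24.5 FPKM in leaf and at 0.200, 0.0553 and 0.130 in root, which rest on 3, 1 and 2 reads. The root minus leaf log2 difference was -4.84 ± 0.91 (SE; limma adjusted p = 0.000579). HannXRQ_Chr07g0193461 on chromosome 7 was steadier, at 31.2, 26.4 and 35.2 FPKM in leaf and 0.328, 0.772 and 0.214 in root (-4.48 ± 0.49, SE; limma adjusted p = 5.35e-06). It is one of the genes in which Leaf 2 was the lowest leaf library.

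In the other direction, HannXRQ_Chr11g0345351 was at 1.68, 1.48 and 2.49 FPKM in leaf, far under its root values. Its root minus leaf log2 difference was 4.04 ± 0.33 (SE; limma adjusted p = 3.13e-07). HannXRQ_Chr16g0518461 on chromosome 16 was at 10.6, 10.9 and 7.48 FPKM in root and 0.450, 0.428 and 1.27 in leaf (2.65 ± 0.25, SE; limma adjusted p = 1.28e-06). Leaf was the lowest tissue for both genes.

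Between leaf and axil, 20 of the 300 genes were lower in leaf (6.67%, where 10.4% of all genes tested were) and 4 were higher (1.33%, where 7.88% were). The balance of these few calls was not stable. It was 13 lower and 8 higher after median-of-ratios scaling, where 7.05% and 10.3% of all genes tested were. After quantile normalization it was 15 and 7, where 8.04% and 9.54% were. Without Leaf 2 the calls were 51 lower and 4 higher, without Leaf 1 they were 13 and 9, without Axil 1 they were 12 and 21, and without Axil 3 they were 31 and 4. Of all genes tested, 10.5% were lower and 7.26% higher without Leaf 2, and 10.1% and 8.01% without Leaf 1. The shares were 10.8% and 8.19% without Axil 1, and 10.2% and 7.2% without Axil 3. Without Leaf 2 the 300 thus stood above all genes for calls lower in leaf, where with all libraries they stood below. The median leaf minus axil difference was -0.13 over the 300 and -0.20 over all genes tested, and -0.01 and 0.00 after median-of-ratios scaling.

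HannXRQ_Chr16g0518461 was the second gene lower in leaf, with an even axil level of 14.1, 12.2 and 15.2 FPKM (leaf minus axil -3.14 ± 0.25, SE; limma adjusted p = 1.11e-06). HannXRQ_Chr05g0152081 on chromosome 5 was the clearest gene higher in leaf, at 17.6, 40.4 and 14.7 FPKM in leaf against 4.32, 1.66 and 0.428 in axil (3.08 ± 0.45, SE; limma adjusted p = 0.000191). Its root libraries held 5, 3 and 1 reads. HannXRQ_Chr13g0424571 on chromosome 13 was at 71.6, 160 and 75.8 FPKM in leaf and 51.2, 8.54 and 13.7 in axil (2.31 ± 0.52, SE; limma adjusted p = 0.00386, and 0.0592 when leaf and axil were fitted alone). The other genes higher in leaf were HannXRQ_Chr07g0193461, described above, and HannXRQ_Chr10g0293191, with log2 differences of 1.89 and 1.49 (limma adjusted p = 0.00892 and 0.00781). The latter was at 9.33, 6.92 and 8.67 FPKM in leaf and 4.87, 2.62 and 0.688 in axil, and was named after its values were seen.

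**Figure D5:**
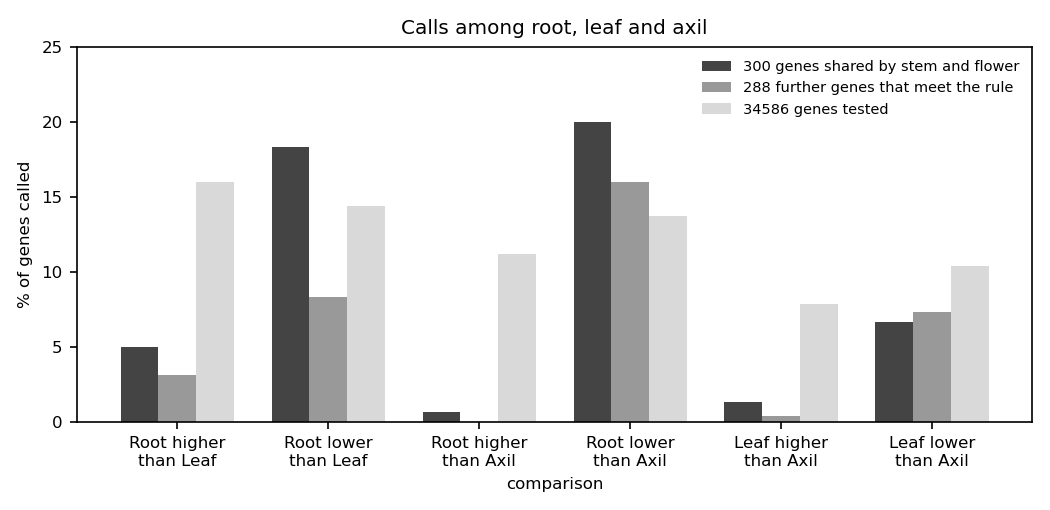
Share of genes called between root, leaf and axil with limma, among the 300 genes (dark), the 288 further genes that meet the rule (mid-grey) and all 34586 genes tested (light). The dark bars for genes lower in root are at 18.3% against leaf and 20.0% against axil, and those for genes higher in root are at 5% and 0.667%.

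At the limit of 300 the genes inside and outside were alike. The last genes inside, HannXRQ_Chr05g0140961 and HannXRQ_Chr10g0294431, and the first outside, HannXRQ_Chr16g0522391 and HannXRQ_Chr09g0267531, all had a margin of 1.48. HannXRQ_Chr10g0294431 was at 10.5, 7.33 and 16.5 FPKM in stem, 24.7, 18.3 and 22.3 in flower and 2.87, 3.91 and 3.06 in axil, its next tissue. HannXRQ_Chr16g0522391 was at 7.02, 8.43 and 7.03 FPKM in stem, 13.4, 14.95 and 11.3 in flower and 2.28, 1.76 and 2.09 in axil. The 288 further genes were lower in stem and flower, with a median of 11.9 FPKM against 24.5 in the 300.

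A further 110 genes met the conditions on the means and failed because libraries overlapped. In 51 of them the highest of the 9 root, leaf and axil libraries was Leaf 2, in 24 Root 1 and in 20 Axil 1. The lowest of the 6 stem and flower libraries was Stem 2 in 74. Stem 3 was the lowest in 6.

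The genes did not gather on 1 chromosome. Going by the chromosome number in the identifier, they lay on all 17, from 10 genes each on chromosomes 7 and 8 to 25 on chromosome 10. Chromosome 10 held 8.33% of them and 7.14% of the other genes, chromosome 16 held 8% and 6.28%, and chromosome 8 held 3.33% and 5.34%.

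Few were neighbours. In the order of identifier numbers, 4 pairs stood next to each other and no run was longer than 2. Members thus made up 1.33% of the 600 places next to a member, and 0.767% of the 6000 places within 10, where they are 0.520% of all such identifiers. In the pair with the largest margins, HannXRQ_Chr14g0453271 was at 85.8, 54.9 and 85.6 FPKM in stem and 62.5, 50.8 and 59.1 in flower, with 1.25, 14.4 and 2.06 in leaf. Its neighbour HannXRQ_Chr14g0453281, described above, was at 0.794, 2.14 and 0.780 FPKM in leaf, and Leaf 2 was the highest leaf library for both. Whether such neighbours share sequence, and so reads, was not tested.

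The genes were somewhat shorter than others by the length that the FPKM values imply. The median was 1411 nt, with quartiles at 896 and 2023 nt, against 1579 nt, with quartiles at 989 and 2379 nt, in the other 32355. Lengths over 3000 nt were found for 19 of the 300 (6.33%), against 14.5% of the others, and lengths under 500 nt for 26 (8.67%), against 7.27%. The 288 further genes had a median of 1510 nt.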

How the data were processed

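The authors deposited FPKM per gene and library, with mean FPKM per tissue. Per the submitters' processing notes, HTSeq 0.6.1 was used. Aligner, annotation and genome build: not given in the sources used here. The libraries are of poly(A) mRNA with molecular identifiers in the adaptors, per the labels' protocols. Whether these entered the counting is not stated there, so limits cover counting error only. A further 19 unnamed columns, 15 with numbers, were not used.

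Each FPKM value is a whole number of reads times a step set by gene length and library total. Reads were solved for all 63411 rows within 0.001 of a whole number, which gave library totals and gene lengths (whole within 0.05 nt for 100% of 39220 genes). The solved reads sum to between 99.97% and 99.998% of the totals. Libraries of a tissue differed by a chi-square of 9.58 to 66.1 per degree of freedom, more than counting noise gives, so none was treated as a repeat deposit of another. This does not show that they are from separate plants.

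The 34586 genes that reach 1 FPKM in 3 or more libraries were fitted on log2(FPKM + 1) with limma 3.58.1 (eBayes with trend, all 15 libraries) in R 4.3.3, and differences on this scale understate those of low genes. The fit and the recovery of reads were tested on simulated data. Python 3.11.15, numpy 2.4.6, pandas 2.3.3 and matplotlib 3.10.9 were used for the rest.

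The genes, lists and tests were chosen with earlier results of these data known. Named genes have the largest margins, the highest levels, the largest differences with separate libraries per comparison (at most 2 a direction), the places next to the limit, or the adjacent pair with the largest margins. Gene lists by symbol, and the TCP genes of the study's title, were not analysed here because no identifier carries a symbol. Alternatives covered pseudocount, filter, scaling, libraries in the fit, replicate block, threshold and leaving out libraries.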

Additional observations from a re-analysis of the deposited data

How the results depend on the processing

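The alternatives with voom on recovered reads, without Leaf 2, Axil 1 and Root 1 together, and for the next tissue, the lean to stem and the highest library were chosen after the data were seen. Of 282 recomputed counts, 237 stayed within 1.5 times. Some could not move: the next tissue without a stem or flower library, and stem above flower without a root, leaf or axil library. Nor could the highest library under another pseudocount. Of 260 recomputations of the 10 differences with separate libraries named for root, leaf and axil, 259 kept their call and direction. The exception was HannXRQ_Chr13g0424571. Filters, the replicate block, tissues fitted alone and omitting other tissues' libraries change only the adjusted p. The 237 and 259 overstate stability. The 44 recomputed stem minus flower differences moved by less than the gene's stem and flower SDs combined (root of the summed squares). This is a wide measure: HannXRQ_Chr15g0479351 stayed within it going from 0.99 to 0.65 without Stem 3. These genes were named for large differences, so this says little of others. Genes near the detection floor limit the counts.

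Counts below run in the order root above leaf, root below leaf, root above axil, root below axil, leaf above axil and leaf below axil, from 15, 55, 2, 60, 4 and 20. A pseudocount of 5 gave counts of 4, 20, 1, 23, 3 and 6, and left 302 genes that met the rule. Of all genes tested, 8.27%, 8.2%, 6.08%, 6.65%, 4.34% and 4.39% were then called. With a pseudocount of 0.1 the counts were 29, 77, 8, 85, 7 and 35. The shares of all genes tested were then 19.6%, 17.9%, 12.8%, 18.4%, 9.6% and 15.1%. Root above axil gave 1 without the filter, 4 after quantile normalization, 0 with limma on the tissues alone (13 genes at an unadjusted p under 0.05) and 6 with adjusted p alone or with voom. The shares of all genes in these settings were 6.22%, 12.3%, 10.4%, 18.1% and 12.8%. Leaf above axil gave 1 with the tissues fitted alone, 8 after median-of-ratios scaling and 7 after quantile normalization, and leaf below axil 12, 13 and 15. Of all genes tested, 6.61%, 10.3% and 9.54% were then called above and 8.34%, 7.05% and 8.04% below. Without Leaf 2, Axil 1 and Root 1 together the last 4 counts were 6, 59, 12 and 38. All genes tested then gave 11.3%, 13.9%, 7.84% and 11.5%. The low counts of root above axil move by 1.5 times with 1 or 2 genes.

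Leaving out each library in turn gave ranges of 9 to 29, 37 to 61, 1 to 6, 43 to 68, 4 to 21 and 12 to 51. The shares of all genes tested ran from 15.6% to 16.4% and 13.4% to 14.9% (root and leaf). They ran from 10.6% to 11.4% and 12.7% to 14.4% (root and axil), and from 7.2% to 8.51% and 9.64% to 10.8% (leaf and axil). Between 479 and 729 genes met the rule, with root next in 64 to 99 genes, leaf in 41 to 126, axil in 96 to 180, and stem above flower in 85 to 159. Of the 300, between 233 and 292 were again among the first 300. Leaf 2 stayed highest in 239 to 250 genes and Stem 3 in 195 to 216 over the scalings. Median-of-ratios scaling moved the median leaf minus axil difference over all genes from -0.20 to 0.00.

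Replicate numbers are only numbers here: the deviations of same-numbered libraries had a median correlation of -0.03 (30 pairs), and the best match of a library bore its own number for 2 of 15. A replicate block gave 1 gene for root above axil, and 16, 53, 55, 4 and 18 for the others in the order above.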
